A study of Homo sapiens with 18 samples.

Results

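A group of 10 chemokine genes of epithelial cells was followed in MCF10A, a non-tumorigenic line of human breast epithelium, after disruption of CBFB or RUNX1 by CRISPR-Cas9. The 10 genes were CXCL1, CXCL2, CXCL3, CXCL5, CXCL6, CXCL8, CXCL14, CXCL16, CX3CL1 and CCL20, and they were found by gene symbol and Entrez ID (2919, 2920, 2921, 6374, 6372, 3576, 9547, 58191, 6376 and 6364, in this order) among 19401 genes listed in at least 1 of 3 deposited tables. RNA was sequenced from 18 samples: 3 of CBFB KO and 3 of its WT, and 4 each of RUNX1 KO1, of RUNX1 KO2 and of a WT of their own. All groups share the MCF10A background. CBFB KO has 1 label and the RUNX1 knockouts have 2, KO1 and KO2, called clones below. The study grew its knockout cells from single-cell colonies, so differences between clones are part of each comparison. Whether the 3 CBFB KO samples come from 1 clone is not given by the labels. The RUNX1 tables share their WT samples. Repeats are not said to be separate cultures, so p-values measure the spread between these samples, which may be technical.

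Chemokines are small secreted or membrane-bound proteins that attract leukocytes along a gradient. CXCL1, CXCL2, CXCL3, CXCL5, CXCL6 and CXCL8 carry the ELR motif before the first cysteines and recruit neutrophils through CXCR2 and, for CXCL6 and CXCL8, CXCR1. They lie in 1 run of genes on chromosome 4. CCL20 attracts CCR6-bearing T cells, B cells and dendritic cells, CXCL16 attracts CXCR6-bearing T cells, and CX3CL1 attracts CX3CR1-bearing cells. CXCL16 and CX3CL1 are made as transmembrane proteins and are released by sheddases. CXCL14 is a chemokine that many epithelia make at rest. In epithelial cells, IL-1, TNF, IL-17 and Toll-like receptor ligands induce several of these genes through NF-kappaB, and AU-rich elements make many of their mRNAs short-lived. RUNX1 is a DNA-binding transcription factor and CBFB its partner, which does not bind DNA itself.

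Of the 10 genes, 9 were listed in at least 1 table, and CXCL6 was in none. The CBFB table listed 7 and tested 6, the KO1 table listed 9 and tested 7, and the KO2 table listed 8 and tested 7. A gene counts as tested where the authors' table gives it an adjusted p-value. The CBFB table lists neither CXCL8 nor CX3CL1, the KO2 table does not list CXCL5, and these responses were not analysed here. CXCL5 and CX3CL1 were too low to test wherever they were listed. The mean of CXCL5 was 0.160 normalized reads per library in the CBFB table and 0.122 in the KO1 table. CX3CL1 had means of 0.124 (KO1) and 0.118 (KO2). Each of these 4 means corresponds to about 1 normalized read over all libraries of its table. The tables hold no value per sample, so each result below is given as the deposited mean over the libraries compared, the level in WT and in the knockout that the mean and the fold change imply, and the log2 fold change with its SE.

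The means of all genes summed to 20214423 normalized reads per library for CBFB KO, 18050386 for KO1 and 16467400 for KO2. Where a gene's mean reached 100, the SE of its log2 fold change had a median of 0.12, 0.10 and 0.21, so KO2 was measured with less precision. CBFB mRNA fell by 4.88 on the log2 scale in CBFB KO (SE 0.14, adjusted p = 1.39e-252). RUNX1 mRNA was higher than WT in the samples labelled RUNX1 KO1 (log2 fold change 0.54, SE 0.09, adjusted p = 1.45e-08) and RUNX1 KO2 (0.46, SE 0.13, adjusted p = 0.00470). The total mRNA of a gene disrupted by CRISPR-Cas9 need not fall, so its level is no check of the RUNX1 labels, and directions below are those of the samples so labelled. All 8 basal epithelial markers had a mean above 100 in the CBFB and KO1 tables, as did the 7 listed in the KO2 table, where KRT14 is not listed. Of 8 leukocyte markers, only CD14 and CSF1R had a mean above 100, and they had one in all 3 tables. CD14 had means of 128 to 142 and passed the test in none. CSF1R, the receptor of macrophage colony-stimulating factor, rose in KO1 (log2 fold change 1.10, adjusted p = 1.44e-14) and KO2 (1.15, adjusted p = 3.86e-07) and had -0.01 in CBFB KO (adjusted p = 0.987). PTPRC, which all leukocytes express, had a mean of 0.463 in the CBFB table and was not listed in the others. The 4 endothelial markers summed to means of 3.85 to 5.83. COL1A1, a fibroblast collagen gene, rose in each table, by 1.40, 1.75 and 1.36 on the log2 scale, while COL1A2 had a mean of 0.145 in the CBFB table and was not listed in the others. The part of these markers in the results was not tested.

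CXCL1 and CXCL8 showed the large differences of the group. CXCL1 rose in each knockout and CXCL8 in both RUNX1 clones, by 2.80- to 4.86-fold. CXCL2 rose in CBFB KO and KO1, CXCL16 in CBFB KO and KO2, and CCL20 in KO1. CXCL3 and CXCL14 passed the test in no knockout. At an adjusted p-value under 0.05, 3 of 6 tested members were higher in CBFB KO, where 11.7% of all tested genes were. In KO1, 4 of 7 were higher against 19.7% of all tested genes, and in KO2 3 of 7 against 8.76%. Lower were 0 members in each comparison, also at an unadjusted p-value under 0.05 in the authors' deposited Wald test, where 7.97%, 19.9% and 6.08% of all tested genes were lower at an adjusted p-value under 0.05. With the study's second threshold, a fold change of at least 2, CXCL1 alone remained in CBFB KO (1.72% of tested genes), and CXCL1 and CXCL8 in KO1 (3.36%) and KO2 (3.9%). The median log2 fold change of the tested members was 0.38, 0.46 and 0.47 in CBFB KO, KO1 and KO2, where that of all tested genes was -0.01, -0.00 and 0.02. In bulk RNA, a higher level per cell and a larger share of cells that make the transcript cannot be told apart.

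**Figure D1:**
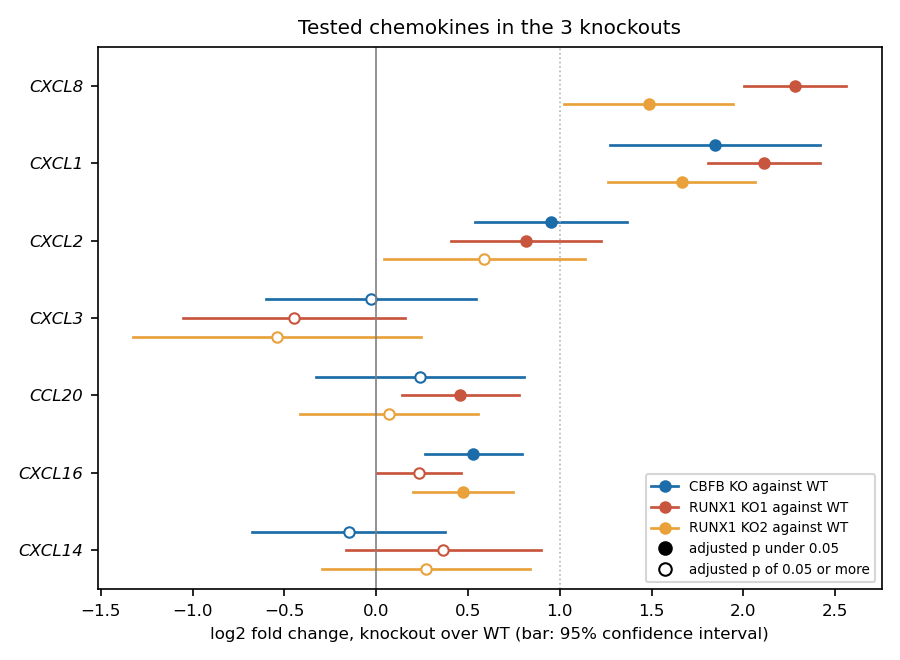
Log2 fold change of each tested chemokine (x axis) in CBFB KO, RUNX1 KO1 and RUNX1 KO2 against WT, with 95% confidence intervals, for 3 or 4 samples a group; filled points have an adjusted p-value under 0.05 and the dotted line marks a fold change of 2. CXCL1 lies right of the dotted line in all 3 knockouts and CXCL8 in both RUNX1 clones, while the intervals of CXCL3 and CXCL14 include 0 in each.

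CXCL1 is a neutrophil chemokine also known as GRO-alpha. Its level was 199 normalized reads in WT and 717 in CBFB KO, a 3.59-fold difference with a 95% confidence interval of 2.41 to 5.35 (log2 fold change 1.85, SE 0.29, adjusted p = 1.18e-08). In the KO1 table the levels were 152 in WT and 657 in the knockout, 4.33-fold higher with an interval of 3.50 to 5.35 (log2 fold change 2.11, SE 0.16, adjusted p = 8.66e-40). In KO2 it stood at 444 against 140 in WT, 3.17-fold higher with an interval of 2.40 to 4.18 (log2 fold change 1.66, SE 0.20, adjusted p = 3.35e-14). The interval lay above a 2-fold difference in each knockout. CXCL1 ranked 378th of 14975, 156th of 16394 and 194th of 15636 tested genes by p-value.

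CXCL8, or interleukin 8, is the prototype neutrophil chemokine in humans. It was tested in the RUNX1 clones alone. Its level was 74.4 normalized reads in WT and 362 in KO1, 4.86-fold higher with an interval of 4.01 to 5.90 (log2 fold change 2.28, SE 0.14, adjusted p = 2.31e-55). By the KO2 table it was 69.6 in WT and 195 in the knockout, 2.80-fold higher with an interval of 2.04 to 3.85 (log2 fold change 1.49, SE 0.23, adjusted p = 1.05e-08). The 2 clones share WT samples, and their fold changes were not tested against each other.

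CXCL2 and CXCL3 encode the near relatives GRO-beta and GRO-gamma. CXCL2 had 91.3 normalized reads in WT and 177 in CBFB KO, 1.94-fold higher with an interval of 1.45 to 2.58 (log2 fold change 0.95, SE 0.21, adjusted p = 1.09e-04). It had 89.0 in WT and 157 in KO1, 1.76-fold higher with an interval of 1.33 to 2.33 (log2 fold change 0.81, SE 0.21, adjusted p = 4.43e-04). In KO2 the values were 82.6 in WT and 124 in the knockout, and the log2 fold change of 0.59 (SE 0.28) did not pass the adjusted test (adjusted p = 0.159), although its unadjusted interval of 0.04 to 1.14 excluded 0. CXCL2 had smaller fold changes than CXCL1 in each table, a difference that was not tested, and in KO2 none was detectable at this precision.

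CXCL3 was a low transcript, with means of 14.1, 12.4 and 11.2. Its level was 14.2 in WT and 14.0 in CBFB KO (log2 fold change -0.03, interval -0.60 to 0.54, adjusted p = 0.961). It was 14.4 in WT and 10.5 in KO1 (-0.45, interval -1.05 to 0.16, adjusted p = 0.259), and 13.3 in WT and 9.15 in KO2 (-0.54, interval -1.32 to 0.24, adjusted p = 0.470). The upper bounds of these intervals lay below the lower bounds of CXCL1 in the same tables. The fold changes as deposited are shrunk toward 0 where a gene is measured with little precision, as with few reads, which bears on CXCL3 and CXCL14. In CBFB KO the SE of CXCL1 (0.29) and of CCL20 (0.29) was as large as that of CXCL3 (0.29). Their fold changes there may therefore be shrunk too, despite higher means. CXCL1, CXCL2 and CXCL3 have similar sequences, and reads from shared stretches could be placed on the wrong gene or dropped. Of the 50-base windows of the longest annotated transcripts, 60 were identical between CXCL1 and CXCL2 (5.73% of the windows of CXCL1 and 5.13% of those of CXCL2), and 48 between CXCL2 and CXCL3 (4.11% and 3.02%). No other pair of the 10 genes shared a window.

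To show what the starts of these genes hold, the 250 bases before the transcription start are given for CXCL1, CXCL8, CXCL2 and CXCL3, the neighbours in this run that were tested. The sequences are from RefSeq on GRCh38.p14, whereas the authors' files are on hg19, and each is read 5′ to 3′ on the strand of its gene: CXCL1 at chr4:73869143-73869392 (plus strand), CXCL8 at chr4:73740319-73740568 (plus strand), CXCL2 at chr4:74099196-74099445 (minus strand) and CXCL3 at chr4:74038690-74038939 (minus strand). Capitals mark matches to the NF-kappaB consensus.
CXCL1: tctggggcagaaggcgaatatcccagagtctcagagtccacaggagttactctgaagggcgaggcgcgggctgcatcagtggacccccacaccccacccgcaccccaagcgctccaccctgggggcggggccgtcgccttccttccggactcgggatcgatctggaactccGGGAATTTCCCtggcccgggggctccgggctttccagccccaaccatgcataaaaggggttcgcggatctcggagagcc
CXCL8: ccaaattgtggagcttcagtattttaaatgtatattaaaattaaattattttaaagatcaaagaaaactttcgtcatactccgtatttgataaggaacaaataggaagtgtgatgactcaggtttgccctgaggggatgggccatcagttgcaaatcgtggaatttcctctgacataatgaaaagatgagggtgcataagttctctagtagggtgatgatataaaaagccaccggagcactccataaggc
CXCL2: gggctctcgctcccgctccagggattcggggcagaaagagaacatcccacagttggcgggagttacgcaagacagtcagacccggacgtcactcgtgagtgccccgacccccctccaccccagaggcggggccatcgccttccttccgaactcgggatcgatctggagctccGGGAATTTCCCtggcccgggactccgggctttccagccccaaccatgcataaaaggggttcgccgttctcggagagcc
CXCL3: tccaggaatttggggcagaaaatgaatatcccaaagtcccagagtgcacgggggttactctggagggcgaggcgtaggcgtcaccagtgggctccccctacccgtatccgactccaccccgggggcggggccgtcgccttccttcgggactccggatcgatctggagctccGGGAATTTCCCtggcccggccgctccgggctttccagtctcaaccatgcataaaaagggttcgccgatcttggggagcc

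Both strands were searched for 4 motifs, and 8 of the 10 genes had an entry in the promoter table. GGGAATTTCCC stood in CXCL1 and CXCL3 with its first base 79 bases before the start, and in CXCL2 with its first base 78 bases before it. GGGAATTTCC in it matches on the strand of the gene and GGAATTTCCC on the opposite strand, so it counts as overlapping matches on both strands. CXCL5 and CXCL6 hold the same letters, from 91 and 90 bases before the start, and CCL20 holds another match on the opposite strand from base 79 to 70. The NF-kappaB consensus was found in 5.05% of 27305 promoters of the same length. The CXCL8 window held no full match, but TGGAATTTCC, from base 92 to 83, differs from the consensus at 1 base. With 1 mismatch allowed, a search added after the sequences were seen, 44.4% of promoters hold a match, among them all those above and CXCL8. The AP-1 motif TGANTCA (6.60% of promoters) stood in CXCL8 from base 137 to 131 and in CXCL14 from base 92 to 86. The TATA motif TATAAA (11.1%) stood in CXCL8 from base 31 to 26 and in CCL20 from base 29 to 24. The RUNX motif, TGTGGT or TGCGGT, was found in 16.1% of promoters and among the 8 genes in CXCL14 alone. With any base allowed at the third position (TGNGGT, 37.6% of promoters, the letters searched first) there were 2 matches in CXCL1 and 1 each in CXCL2, CXCL6, CXCL14 and CCL20, and 0 in CXCL3, CXCL5 and CXCL8. Without gaps and aligned at the start, CXCL1 shared 64.8% of these bases with CXCL3 and 46.8% with CXCL2. CXCL1 and CXCL3 hold the same NF-kappaB letters at the same distance. In CBFB KO, KO1 and KO2 the log2 fold changes were 1.85, 2.11 and 1.66 for CXCL1 and -0.03, -0.45 and -0.54 for CXCL3. Those of CXCL3 rest on means of 14.1, 12.4 and 11.2 and are shrunk toward 0. A link of letters to fold changes was not tested. A match is a description of letters and not of binding.

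CXCL16, a T-cell chemokine, had smaller fold changes than CXCL1 in each table, a difference that was not tested. It had 347 normalized reads in WT and 500 in CBFB KO, 1.44-fold higher with an interval of 1.20 to 1.73 (log2 fold change 0.53, SE 0.13, adjusted p = 0.00104). In KO2 it had 529 in WT and 734 in the knockout, 1.39-fold higher with an interval of 1.15 to 1.67 (log2 fold change 0.47, SE 0.14, adjusted p = 0.00728). In KO1 it had 559 and 658, and the log2 fold change of 0.23 (SE 0.12) did not pass the test (adjusted p = 0.0986). With the dependence of fold changes on length and GC content removed, CXCL16 passed the test in KO1 (0.30, adjusted p = 0.0324) and no longer did in KO2, where its value became 0.35 (adjusted p = 0.0769).

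CCL20 had 217 normalized reads in WT and 255 in CBFB KO (log2 fold change 0.24, interval -0.33 to 0.81, adjusted p = 0.643). It rose in KO1, from 123 to 169, 1.37-fold higher with an interval of 1.10 to 1.71 (log2 fold change 0.46, SE 0.16, adjusted p = 0.0150). In KO2 it had 115 in WT and 121 in the knockout (0.07, interval -0.41 to 0.55, adjusted p = 0.923). CXCL14 was low, at 6.20 in WT and 5.58 in CBFB KO (-0.15, adjusted p = 0.768), 14.2 in WT and 18.3 in KO1 (0.37, adjusted p = 0.300), and 13.1 in WT and 15.8 in KO2 (0.27, adjusted p = 0.671). Its intervals ran from -0.68 to 0.38, from -0.17 to 0.90 and from -0.29 to 0.84, around values that are shrunk toward 0.

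Genes were compared in level only per 1000 bases of the longest annotated transcript. In the WT of the CBFB experiment the order of levels was CCL20 (258 normalized reads per kb), CXCL1 (182), CXCL16 (156), CXCL2 (75.0), CXCL3 (8.68) and CXCL14 (3.14). In CBFB KO CXCL1 stood first at 653, ahead of CCL20 at 304, CXCL16 at 225 and CXCL2 at 145. In the WT of the RUNX1 experiment, by the KO1 table, the order was CXCL16 (252), CCL20 (146), CXCL1 (138), CXCL2 (73.1), CXCL8 (43.6), CXCL3 (8.76) and CXCL14 (7.22). CXCL1 again stood first in both clones, at 599 per kb in KO1 and 405 in KO2, and was followed by CXCL16 at 296 and 330. CXCL8 reached 212 per kb in KO1 and 114 in KO2. Summed over the listed members, the level per kb was 683 in WT and 1339 in CBFB KO, 669 and 1453 in the KO1 table, and 627 and 1109 in the KO2 table. The share of CXCL1 in that sum was 26.6% in WT and 48.8% in CBFB KO, 20.7% and 41.2% in the KO1 table, and 20.4% and 36.5% in the KO2 table. CXCL8 made up 14.6% of the sum in KO1 and 10.3% in KO2 but is not listed for CBFB KO. The sums and shares of the CBFB and RUNX1 experiments therefore cover different genes and are not like for like. No spread of a level over samples could be computed, so neighbours in these orders, such as CCL20 and CXCL1 in WT, could not be told apart by a test. The WT levels of the tested members from the KO2 table were lower than those from the KO1 table by 0.08 to 0.12 on the log2 scale, although the samples are the same.

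**Figure D2:**
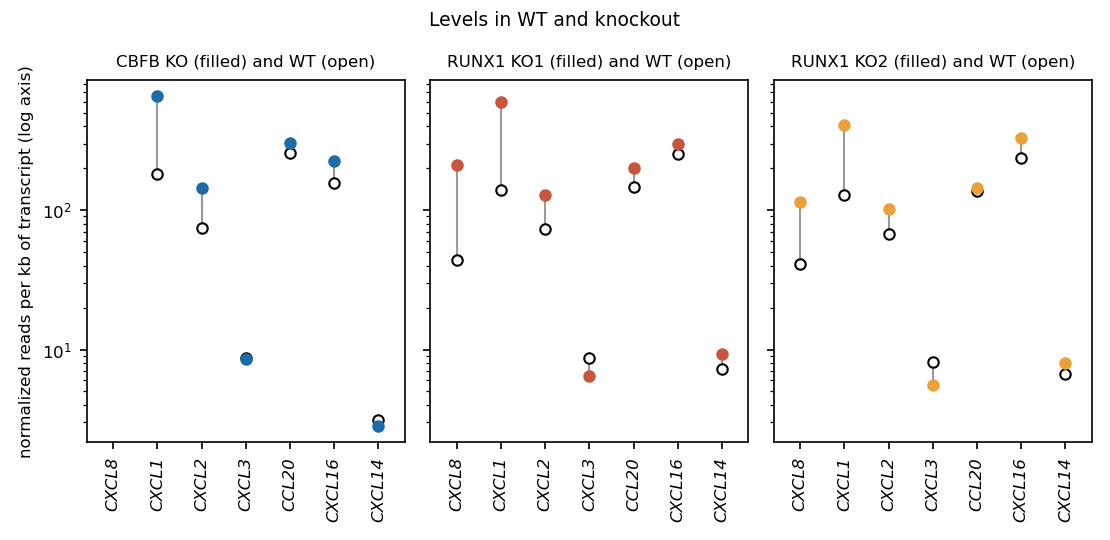
Level of each tested chemokine in normalized reads per kb of transcript (y axis, log scale) in WT (open) and knockout (filled), implied by the deposited mean and fold change of each table; CXCL8 is not listed in the CBFB table and no error of a level could be computed. CXCL1 has the highest filled point in all 3 panels, at 653, 599 and 405, whereas CXCL3 and CXCL14 stay under 10.

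The fold changes in CBFB KO were then set against those in each RUNX1 clone, since these tables share no library. For the 6 members tested in all tables, 0 differences had an adjusted p-value under 0.05 in either comparison (two-sided normal test of the difference over its combined SE, Benjamini-Hochberg adjustment), where 9.84% of 14940 genes did with KO1 and 2.9% of 14503 genes with KO2. Of the members, 0 had an unadjusted p-value under 0.05. For CXCL1 the difference, CBFB KO minus KO1, was -0.27 on the log2 scale with an interval of -0.92 to 0.38 (adjusted p = 0.681), and minus KO2 it was 0.18 with an interval of -0.52 to 0.88 (adjusted p = 0.999). For CXCL2 the differences were 0.14 (interval -0.44 to 0.72) and 0.36 (-0.32 to 1.05). For CXCL16 they were 0.29 (-0.06 to 0.64, unadjusted p = 0.0997, adjusted p = 0.314) and 0.06 (-0.32 to 0.44). The intervals of CXCL3 were -0.41 to 1.25 and -0.46 to 1.48, those of CXCL14 -1.26 to 0.23 and -1.20 to 0.35, and those of CCL20 -0.87 to 0.43 and -0.58 to 0.91. The widest of all these intervals reaches a log2 difference of 1.48, so they do not show that the knockouts act alike. Experiment and disrupted gene cannot be told apart in them.

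Among the 36 other chemokine genes, 14, 15 and 14 were listed and 2, 7 and 6 tested in the CBFB, KO1 and KO2 tables, and 1, 1 and 0 rose. Of all tested genes, 11.7%, 19.7% and 8.76% rose. A gene that a table does not list need not be low, and its level was not analysed here. CCL28, a mucosal chemokine, rose in CBFB KO (log2 fold change 1.05, adjusted p = 1.03e-06) and KO1 (0.48, adjusted p = 0.0441), and had 0.14 in KO2 (adjusted p = 0.844). Of 23 chemokine receptors, 14, 15 and 15 were listed and 7, 9 and 8 tested, of which 0, 3 and 0 rose and 0, 1 and 1 were lower. These counts stand beside the same shares of all tested genes that rose and 7.97%, 19.9% and 6.08% that were lower. CCR6, the receptor of CCL20, had means of 448, 361 and 328, was lower in KO1 (-0.27, adjusted p = 0.00999) and KO2 (-0.38, adjusted p = 0.0333), and had -0.21 in CBFB KO (adjusted p = 0.228). The neutrophil receptors CXCR1 and CXCR2 had means of 5.95 to 14.3. CXCR2 rose in KO1 (0.92, adjusted p = 0.00872), with 0.36 in CBFB KO (adjusted p = 0.420) and 0.90 in KO2 (adjusted p = 0.0903), and CXCR1 passed the test in none. CXCR6, the receptor of CXCL16, rose in KO1 from a low level (mean 6.89, 0.87, adjusted p = 0.0155) and had -0.06 in CBFB KO (adjusted p = 0.926) and 0.49 in KO2 (adjusted p = 0.541). The atypical receptor gene CCRL2 was the third to rise in KO1 (mean 1.83, 0.78, adjusted p = 0.0110), with 0.99 in KO2 (adjusted p = 0.0503). No other receptor passed the test in any table, and CX3CR1 had means of 0.107 to 0.316.

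Both sheddases of the transmembrane chemokines were well expressed. ADAM10 rose in CBFB KO (log2 fold change 0.45, adjusted p = 3.24e-06) and KO1 (0.39, adjusted p = 0.00249) and had 0.05 in KO2 (SE 0.37, adjusted p = 0.962). ADAM17 passed the test in none, with 0.12, 0.22 and -0.12. RHBDF2, which carries ADAM17 to the cell surface, rose in CBFB KO (0.63, adjusted p = 1.22e-04) and in KO1 (0.72, adjusted p = 2.37e-10), and its relative RHBDF1 rose in KO1 (0.36, adjusted p = 0.00350) and KO2 (0.39, adjusted p = 0.0121). In the remaining table RHBDF2 had 0.49 (KO2, adjusted p = 0.0834) and RHBDF1 0.14 (CBFB KO, adjusted p = 0.684). The metalloproteinase inhibitor gene TIMP1 was lower in CBFB KO (-0.67, adjusted p = 8.30e-04) and in KO1 (-0.65, adjusted p = 9.07e-08) and had 0.09 in KO2 (adjusted p = 0.939). TIMP3 was lower in CBFB KO (-0.71, adjusted p = 2.88e-04) and had -0.11 in KO1 and 0.07 in KO2, with adjusted p-values of 0.161 and 0.658.

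Of 9 genes for ligands that induce these chemokines, the antagonist gene IL1RN included, 4, 5 and 4 were tested in the CBFB, KO1 and KO2 tables. In CBFB KO 2 rose, in KO1 5 and in KO2 4, beside 11.7%, 19.7% and 8.76% of all tested genes. Their median log2 fold changes were 0.93, 2.70 and 2.10, beside -0.01, -0.00 and 0.02 over all tested genes. IL1B, which encodes interleukin 1 beta, rose by 4.85, 3.37 and 2.50 in CBFB KO, KO1 and KO2 (SE 0.20, 0.15 and 0.20; adjusted p = 4.28e-132, 2.29e-109 and 1.36e-34). IL1A, which encodes interleukin 1 alpha and is not listed in the CBFB table, rose by 3.30 in KO1 and 2.35 in KO2, with adjusted p-values of 7.70e-132 and 6.42e-15. IL1RN, which encodes the antagonist of the same receptor, rose by 1.36 in KO1 and 1.86 in KO2, with adjusted p-values of 1.39e-41 and 9.16e-31, and had 0.53 in CBFB KO (adjusted p = 0.132). TNF was low, with means of 3.67 to 5.67, and rose in KO1 (1.50, adjusted p = 1.16e-05) and KO2 (1.70, adjusted p = 5.44e-04), with 0.31 in CBFB KO (adjusted p = 0.273). LTB, the gene of lymphotoxin beta, rose in CBFB KO (1.32, adjusted p = 4.71e-05) and in KO1 (2.70, adjusted p = 2.56e-17). It was low, with means of 9.68 and 15.2, and is not listed for KO2.

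Of 21 receptors and adaptors for these ligands or for Toll-like receptor ligands, 18, 20 and 20 were tested. Of these, 7, 11 and 5 rose, and 0, 2 and 0 were lower, with medians of 0.39, 0.36 and 0.31 on the log2 scale. Of all tested genes, 7.97%, 19.9% and 6.08% were lower. The shares that rose and the medians of all tested genes are those given for the ligands. IRAK2, a kinase of the interleukin 1 and Toll-like receptor pathway, rose by 1.35 (adjusted p = 6.70e-05), 2.35 (adjusted p = 1.70e-22) and 1.72 (adjusted p = 1.10e-06) on the log2 scale. IL17RE, a receptor subunit for interleukin 17C, rose by 1.04 (adjusted p = 3.06e-05), 1.61 (adjusted p = 2.61e-31) and 1.75 (adjusted p = 1.17e-09), whereas IL17C itself was too low to test. MYD88, the adaptor of the same pathway as IRAK2, rose by 0.75, 0.86 and 0.62, with adjusted p-values of 1.84e-05, 2.48e-09 and 0.0432. TLR3 rose in CBFB KO (0.56, adjusted p = 0.00642) and in KO1 (0.69, adjusted p = 6.84e-05) and had 0.43 in KO2 (adjusted p = 0.560). The others to rise in KO2 were IL1R2 and TLR4, and the 2 lower in KO1 were IL1RAP (-0.33, adjusted p = 0.0289) and TRAF2 (-0.29, adjusted p = 0.0257).

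Of 15 NF-kappaB genes, 14, 15 and 15 were tested. In CBFB KO 7 rose and 1 was lower, in KO1 9 and 1, and in KO2 5 and 0, beside 11.7%, 19.7% and 8.76% of all tested genes that rose and 7.97%, 19.9% and 6.08% that were lower. The medians of the list were 0.44, 0.59 and 0.22 on the log2 scale, beside -0.01, -0.00 and 0.02 over all tested genes. TNFAIP3, which encodes an inhibitor that NF-kappaB itself induces, rose by 2.10 in KO1 and 1.39 in KO2, with adjusted p-values of 2.59e-63 and 2.38e-05, and is not listed in the CBFB table. NFKBIZ, which encodes a nuclear coactivator of the pathway, rose by 0.93 in CBFB KO (adjusted p = 6.72e-07) and 1.34 in KO1 (adjusted p = 3.57e-10), with 0.87 in KO2 (adjusted p = 0.0610). RELB, a subunit of the factor, had 0.71 in CBFB KO (adjusted p = 0.0692) and rose by 1.12 in KO1 and 0.99 in KO2, with adjusted p-values of 9.61e-18 and 0.00512. NFKBIE, an inhibitor gene, rose by 0.996 in CBFB KO (adjusted p = 2.30e-05) and 0.65 in KO1 (adjusted p = 3.98e-06), with 0.89 in KO2 (adjusted p = 0.0558). NFKBIA, NFKB2 and TNIP1 were the others to rise in KO2. The lower genes were CHUK in CBFB KO (-0.26, adjusted p = 0.0334) and NFKBIB in KO1 (-0.32, adjusted p = 0.0363).

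Among 7 genes for proteins that bind AU-rich or stem-loop elements of chemokine mRNAs, none passed the test in CBFB KO by the deposited Wald test. In KO1 2 rose and 2 were lower, and in KO2 0 rose and 2 were lower. Of all tested genes, 11.7%, 19.7% and 8.76% rose and 7.97%, 19.9% and 6.08% were lower in CBFB KO, KO1 and KO2. The medians of the list were -0.10, 0.10 and -0.11 on the log2 scale. HNRNPD, which encodes the AU-rich element binding protein AUF1, was lower in KO1 (log2 fold change -0.73, adjusted p = 7.61e-12) and KO2 (-0.70, adjusted p = 8.03e-10) and had -0.27 in CBFB KO (adjusted p = 0.141). ELAVL1, which encodes the stabilizing protein HuR, was lower in KO1 (-0.38, adjusted p = 5.69e-10) and KO2 (-0.47, adjusted p = 0.00351) and had -0.11 in CBFB KO (adjusted p = 0.470). ZC3H12A, the gene of the endonuclease Regnase-1, rose in KO1 (0.65, adjusted p = 7.46e-05), as did ZFP36L2 (0.21, adjusted p = 0.00907).

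**Figure D3:**
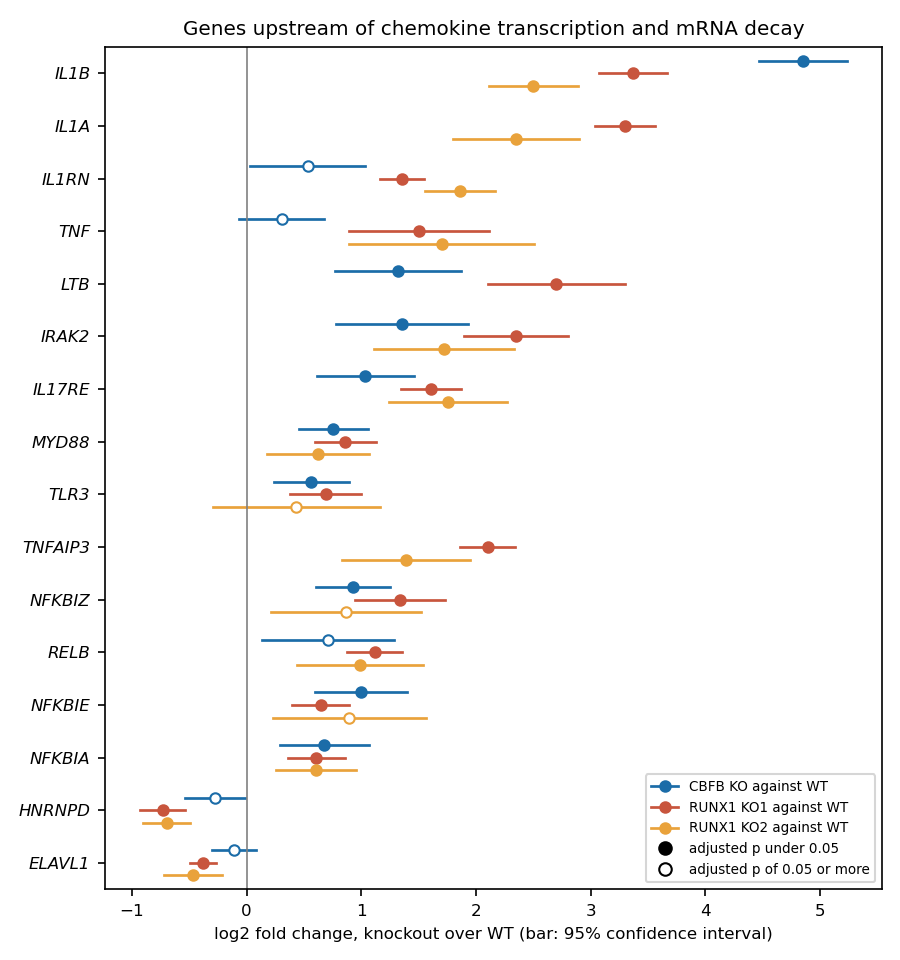
Log2 fold change (x axis) of 16 genes for inducing ligands, receptor adaptors, NF-kappaB components and mRNA-binding proteins, with 95% confidence intervals, in CBFB KO, RUNX1 KO1 and RUNX1 KO2 against WT; filled points have an adjusted p-value under 0.05. IL1B reaches 4.85, 3.37 and 2.50, and HNRNPD and ELAVL1 lie left of 0.

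The run on chromosome 4 was also read gene by gene, in the order CXCL8, CXCL6, PF4V1, CXCL1, PF4, PPBP, CXCL5, CXCL3 and CXCL2. CXCL3 lies between CXCL5 and CXCL2, and the platelet chemokine genes within the run had no tested value. Of the 10 protein-coding genes before it, 5, 6 and 5 were tested. AFP rose in each table, by 0.82, 1.15 and 1.59 on the log2 scale from means of 5.97, 6.17 and 8.86, RASSF6, the nearest of the tested ones, rose in KO1 (0.84, adjusted p = 1.64e-08) with 0.08 in CBFB KO and 0.42 in KO2 (adjusted p = 0.786 and 0.495), and ANKRD17 was lower in CBFB KO (-0.29, adjusted p = 0.00105). Of the 10 after it, 9 were tested in each table. MTHFD2L, next to CXCL2, had -0.09, 0.01 and -0.06. EREG, an EGF receptor ligand gene, rose by 1.40 (adjusted p = 6.30e-21), 1.88 (adjusted p = 4.28e-26) and 1.31 (adjusted p = 0.00157), and PARM1 by 3.08 (adjusted p = 1.82e-41), 2.57 (adjusted p = 1.22e-69) and 2.11 (adjusted p = 1.11e-13). The EGF receptor ligand gene AREG, which lies between them, had 0.39, 0.06 and -0.01 and passed the test in none. BTC, also between them, rose in KO1 (1.13, adjusted p = 2.17e-05) and had 0.70 in CBFB KO (adjusted p = 0.0676) and 0.93 in KO2 (adjusted p = 0.0740). EPGN was lower in CBFB KO (-0.53, adjusted p = 4.22e-05), and RCHY1 was lower in CBFB KO (-0.30, adjusted p = 0.0275) and in KO1 (-0.30, adjusted p = 0.0168).

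**Figure D4:**
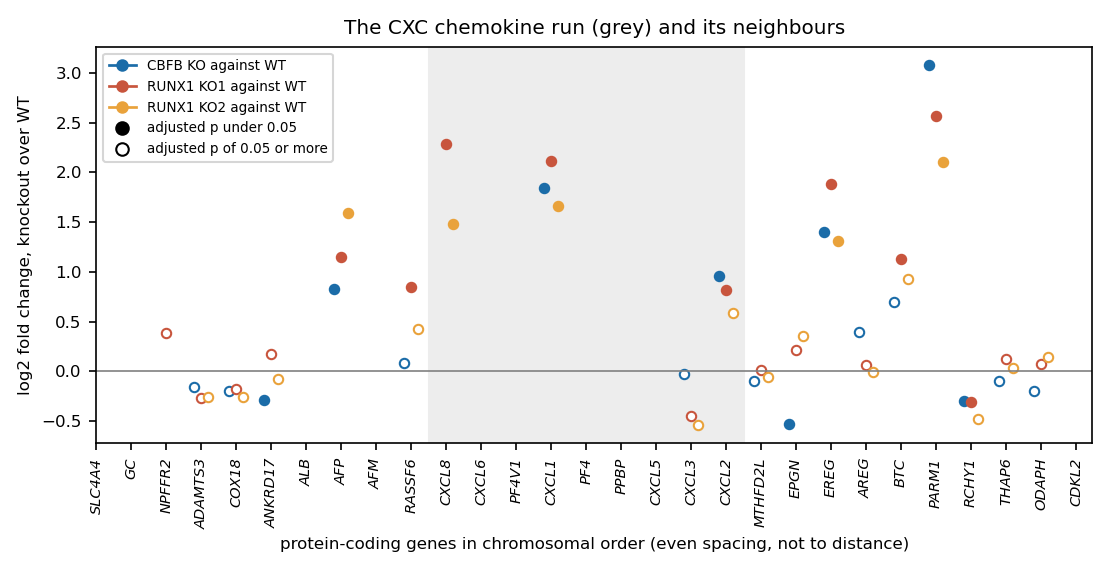
Log2 fold change (y axis) of the protein-coding genes in their order along chromosome 4 (x axis, even spacing), with the chemokine run shaded; points are the tested genes in CBFB KO, RUNX1 KO1 and RUNX1 KO2 against WT, filled at an adjusted p-value under 0.05, with no error shown. Points for CXCL8, CXCL1, EREG and PARM1 run from 1.31 to 3.08, and those of AFP, a low transcript, from 0.82 to 1.59. CXCL2 and BTC lie between 0.59 and 1.13, MTHFD2L and AREG between -0.09 and 0.39, and CXCL3 between -0.54 and -0.03.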

How the data were processed

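RNA from 18 MCF10A samples was sequenced. The labels name a TruSeq mRNA kit whereas the study's methods speak of ribosomal RNA removal, and these sources do not settle which was done. The submitters' processing notes name Trimmomatic, STAR, DESeq2 and hg19, without versions. Analysed were the tables the authors deposited, 1 for each of CBFB KO, RUNX1 KO1 and RUNX1 KO2. Each holds the authors' mean normalized reads over all libraries compared, treated as a signal, the authors' log2 fold change and its SE, a deposited test score (fold change over SE), and the authors' deposited p-value and adjusted p-value of a two-sided Wald test made in DESeq2. These columns are the authors' own comparisons, used here because 0 columns hold values per sample, and no SD or value per replicate could be given. Depth is known only as the sum of the mean normalized reads. Whether reads were counted by strand is not given in the sources used here.

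Groups came from the sample labels and genes were joined by Entrez ID. Group levels were computed from each mean and fold change, with equal group sizes. CBFB KO was compared with each RUNX1 clone by dividing the difference of their fold changes by its combined SE (two-sided normal p-value), adjusted by Benjamini-Hochberg over all genes tested in both tables. KO1 and KO2 were not tested against each other, because their WT is the same. The scripts (Python 3.11.15, numpy 2.4.6, pandas 2.3.3, scipy 1.17.1) were tested on simulated data. Intervals are 95%. Transcript lengths, GC content and coding lengths came from GENCODE release 29, gene order and promoters from RefSeq. A gene rose or fell where its adjusted p-value was under 0.05, and the study's fold-change threshold of 2 is given beside it. Alternatives were other thresholds, adjustment over other genes, centring on the median gene, removal of the trend on length and GC content, and coding length.

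The members and lists were chosen with earlier results of these data known. Named were all members, and from each list at most 4 genes with the largest fold change among those past that threshold with a mean of at least 10 in at least 2 tables, plus the receptors and sheddases that act on a member. Genes behind counts of 5 or fewer, TNF, LTB, MTHFD2L, AREG, BTC, NFKBIA, and the RUNX motif letters were chosen after their values were seen. The remaining list was that of luminal hormone receptors, where only ESR1 was listed, and it passed the test in none of the tables.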

Additional observations from a re-analysis of the deposited data

How the results depend on the processing

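The number of members past both thresholds was 1, 2 and 2 in CBFB KO, KO1 and KO2. Without the fold-change threshold it was 3 in CBFB KO and 4 in KO1, and at a fold change of 4 it was 0 in CBFB KO and 0 in KO2, by construction of the threshold. In KO1, CXCL2 joined CXCL1 and CXCL8 after removal of the dependence on length and GC content (log2 fold change 1.03, adjusted p = 6.15e-06), which made 3. Of 40 recomputed fold changes of members, 38 kept their direction and their side of the threshold, 1 lost the threshold and 1 passed it, both in CXCL16 under that removal, and 0 were reversed. The 40 are 20 fold changes, each recomputed by centring on the median gene and by that removal. Centring could hardly change a call, since the medians subtracted were 0.0013, -0.0205 and -0.0025 in CBFB KO, KO1 and KO2. In 34 further settings the adjusted p alone was recomputed, and its side of the threshold was kept in all 34. The number of members that differed between CBFB KO and either clone was 0 under every alternative run. With coding length, 2 members changed places in the order of levels in each group of the KO1 and KO2 tables, and 0 did in the CBFB table. Low means limit CXCL3 and CXCL14, and CXCL5 and CX3CL1 could not be tested. No paired analysis was possible because the tables hold no value per sample. For the same reason no replicate could be left out.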
